A study of Mus musculus with 17 samples.

Results

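Tight junctions seal the space between neighbouring epithelial cells. Their strands are built from claudins, a family of membrane proteins in which some members form pores for ions and water and others tighten the seal. Occludin, encoded by Ocln, is a further membrane protein of the strand, and zonula occludens 1, encoded by Tjp1, is a scaffold protein that ties the strand to the actin cytoskeleton. Along the kidney tubule each segment carries its own mixture of claudins, which sets what can pass between the cells. The genes described here are 8 claudins (Cldn1, Cldn2, Cldn3, Cldn4, Cldn7, Cldn8, Cldn10 and Cldn19), Ocln and Tjp1. They were chosen by name as claudins of tubular epithelium and core parts of the junction, and make up 10 of the 53313 gene identifiers shared by all libraries. All 10 passed the filter on low counts in cultured cells and in kidneys.

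RNA was sequenced from cultures of primary tubular epithelial cells (PTEC) and from halved, otherwise unseparated kidneys of wild-type C57BL/6JRj mice, to compare senescence in culture with aging in the organ. PTEC were grown from tubular fragments of collagenase-digested kidneys: 4 cultures were non-senescent PTEC, taken at day 6 without irradiation, and 4 were senescent PTEC, taken at day 16 after γ-irradiation with 10 Gray, and the effects of irradiation and of the longer culture cannot be told apart. Kidneys came from male mice of 3, 12 and 24 months, 3 mice at each age, with no treatment, and each library was made from a frozen piece of the right kidney; the sources used here give no share of cortex and medulla in it. Nothing in the labels states whether the cultures came from separate mice, so their p-values measure the spread between these cultures only. Counts on genes ranged from 26963442 to 35409144 per culture and from 37311247 to 66894790 per kidney, and the 3-month-old kidneys were the shallowest of the kidneys and had been counted on another gene set than the older ones, which cannot be told apart from age.

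The labelled cell type was checked against segment markers, given as summed CPM, which are counts relative to the scaled size of the library. The 14 proximal tubule markers together reached 355 to 1540 CPM in non-senescent PTEC and 273 to 468 CPM in senescent PTEC, beside 45185 to 58074 CPM in the kidneys. In senescent PTEC the proximal tubule genes Miox, Slc22a6, Slc22a8 and Slc34a1 had no more than 3 counts in any culture. The 9 pan-epithelial markers, among them Epcam and Cdh1, reached 3561 to 5018 CPM in non-senescent and 1812 to 3935 CPM in senescent PTEC. The 10 fibroblast and pericyte markers reached 205 to 342 CPM in non-senescent and 1032 to 2219 CPM in senescent PTEC, with 7 of the 9 tested up-regulated, beside 20.1% of all genes tested. The 6 podocyte markers reached 90.8 to 206 CPM in non-senescent and 213 to 465 CPM in senescent PTEC, with 2 of the 4 tested up-regulated, beside the same 20.1%. Among the kidneys, replicate 2 of the 3-month-old group stood apart from replicates 1 and 3 for several of the genes below.

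The promoter stretches of the 3 claudins that dominated a sample type are shown to place them in the genome. They are the 250 bases before a RefSeq start site, read 5′ to 3′ on the strand of the gene in build GRCm38.p6, and capitals mark motif matches. Cldn4 made up the largest share of claudin transcripts in PTEC, and Cldn2 and Cldn10 together the largest share in kidneys. The stretch of Cldn2 is chrX:139800558-139800807 on the plus strand, that of Cldn4 chr5:134946935-134947184 on the minus strand and that of Cldn10, before the first of its 2 listed starts, chr14:118787621-118787870 on the plus strand.
Cldn2: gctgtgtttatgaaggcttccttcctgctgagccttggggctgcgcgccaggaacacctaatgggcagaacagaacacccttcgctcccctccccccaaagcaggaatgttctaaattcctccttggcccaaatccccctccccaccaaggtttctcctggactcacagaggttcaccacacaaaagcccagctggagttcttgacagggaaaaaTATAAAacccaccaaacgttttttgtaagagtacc
Cldn4: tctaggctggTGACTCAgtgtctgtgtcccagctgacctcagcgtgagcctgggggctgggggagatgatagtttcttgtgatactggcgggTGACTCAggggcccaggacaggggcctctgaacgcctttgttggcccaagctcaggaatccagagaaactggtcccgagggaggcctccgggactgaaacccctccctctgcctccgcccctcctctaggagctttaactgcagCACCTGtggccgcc
Cldn10: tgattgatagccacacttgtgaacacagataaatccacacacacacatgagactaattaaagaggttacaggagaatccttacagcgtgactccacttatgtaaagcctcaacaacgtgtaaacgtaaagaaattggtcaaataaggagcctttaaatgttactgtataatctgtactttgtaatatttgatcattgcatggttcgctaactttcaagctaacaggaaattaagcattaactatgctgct

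On both strands 5 motifs were searched in these stretches. The TATA box TATAAA lies 35 bases before the start of Cldn2, and 12.4% of the 32851 RefSeq promoter stretches of this length hold it. The AP-1 motif TGANTCA lies 240 and 158 bases before the start of Cldn4 and occurs in 6.75% of all stretches. The Snail and Zeb E-box CAGGTG, read as CACCTG on the printed strand, lies 14 bases before the start of Cldn4 and occurs in 17.2% of stretches. The Grainyhead-like motif AACCGGTT (0.116% of stretches) and the HNF1 motif (0.00913%) were in none of the stretches of the 9 genes with an entry. The matches do not overlap each other. Cldn8 had no entry in the promoter table. The GC content was 62% for Cldn4, 52% for Cldn2 and 36% for this start of Cldn10, against a median of 52.4% over all stretches.

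In build GRCm38 the genes lie apart from each other, except for Cldn3 and Cldn4. Cldn4 (chr5:134945119-134946934, minus strand) and Cldn3 (chr5:134986214-134987472, plus strand) are neighbouring genes 39280 bases apart, and each, like Cldn8 (chr16:88560828-88563183, minus strand), is a single exon. Cldn1 is at chr16:26356642-26371841 on the minus strand, Cldn2 at chrX:139800828-139811386 on the plus strand and Cldn7 at chr11:69964779-69967885 on the plus strand. Cldn10 spans chr14:118787908-118875489 on the plus strand, and since counts were made over the whole gene, transcripts from its different starts could not be separated. Cldn19 is at chr4:119255414-119262438 on the plus strand and shares 90 exon bases with the antisense gene Gm12927, which had a mean of 75.6 counts in the kidneys and 2.75 in the cultures. Ocln lies at chr13:100496507-100552718 and Tjp1 at chr7:65296165-65527781, both on the minus strand. Cldn3 shares 40 exon bases with the antisense gene Wbscr25, which had a mean of 5.88 counts in the cultures and 0 in the kidneys. The strand setting of the counting is not given in the sources used here, so reads in the shared bases could have been counted for either gene.

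Levels of different genes were compared as TPM, counts relative to exon length with the same total in every library, which was computed here from the deposited counts and the exon lengths of the annotation. In non-senescent PTEC, Cldn4, a claudin of distal tubule and collecting duct that takes part in paracellular chloride passage, was the most abundant member with 1136 ± 148 TPM (SD, n = 4). It was followed by Cldn3 with 301 ± 76.2, Cldn7 with 262 ± 39.8, Cldn1 with 245 ± 65.1 and Cldn2 with 229 ± 108 TPM, whose ranges overlapped from each gene to the next. Tjp1 had 116 ± 50.5 TPM. Ocln had 30.4 ± 9.27, Cldn19 26.1 ± 12.4, Cldn8 17.4 ± 16.6 and Cldn10 6.48 ± 4.45 TPM, again with overlapping neighbours. In senescent PTEC Cldn4 was still at the top, with 1221 ± 745 TPM, and its lowest culture lay above the highest culture of the next gene, Cldn1 (258 ± 41.6 TPM). Cldn3 (209 ± 132 TPM), Cldn7 (145 ± 84.1 TPM), Tjp1 (108 ± 16.1 TPM) and Cldn2 (99.6 ± 55.0 TPM) followed with ranges that overlapped. The bottom of the order was Cldn19 with 4.54 ± 2.49, Cldn8 with 2.84 ± 1.66 and Cldn10 with 0.707 ± 0.255 TPM.

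The order in kidneys was a different one. At 3 months Cldn2, which forms a pore for cations and water in the proximal tubule, had 312 ± 135 TPM (SD, n = 3) and Cldn10, whose isoforms form ion pores in the proximal tubule and the thick ascending limb, had 293 ± 70.6 TPM, with overlapping ranges. Cldn8, a claudin of the distal nephron and collecting duct, followed with 120 ± 34.7 TPM, then Cldn4 with 58.0 ± 27.5, Cldn7 with 33.6 ± 7.05 and Cldn3 with 27.3 ± 3.33 TPM. Cldn19, which acts with Cldn16 in calcium and magnesium reabsorption in the thick ascending limb, had 20.0 ± 2.72 TPM. Ocln had 14.4 ± 0.873, Tjp1 8.39 ± 1.70 and Cldn1 6.40 ± 2.46 TPM. Cldn2, Cldn10 and Cldn8 were also the top 3 members at 12 and 24 months. At 12 months Cldn2 (324 ± 93.7 TPM) and Cldn10 (250 ± 89.0 TPM) overlapped, while at 24 months every kidney had more Cldn2 (416 ± 23.2 TPM) than any had Cldn10 (180 ± 36.0 TPM).

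Set side by side, and with no test since cultures and kidneys were fitted apart, the mean of non-senescent PTEC was 38.3 times that of 3-month-old kidneys for Cldn1, 19.6 times for Cldn4, 13.8 times for Tjp1, 11 times for Cldn3 and 7.80 times for Cldn7. The kidney mean was 45.1 times that of non-senescent PTEC for Cldn10 and 6.90 times for Cldn8. For Cldn8 the mean of these cultures was raised by replicate 4, with 42.2 TPM, where their median was 9.29 TPM. Cldn2 was closer, with a kidney mean 1.36 times that of the cultures. Of the summed TPM of all claudins, Cldn4 made up 45.5% ± 3.39 in non-senescent and 52.9% ± 11.6 in senescent PTEC, against 5.87% ± 2.79 in 3-month-old kidneys. In kidneys Cldn2 made up 31.4% ± 13.4 at 3 months, 40.2% ± 11.6 at 12 months and 48.2% ± 1.53 at 24 months. The share of Cldn10 was 29.6% ± 7.70, 30.9% ± 10.5 and 20.8% ± 2.63 at these ages.

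**Figure D1:**
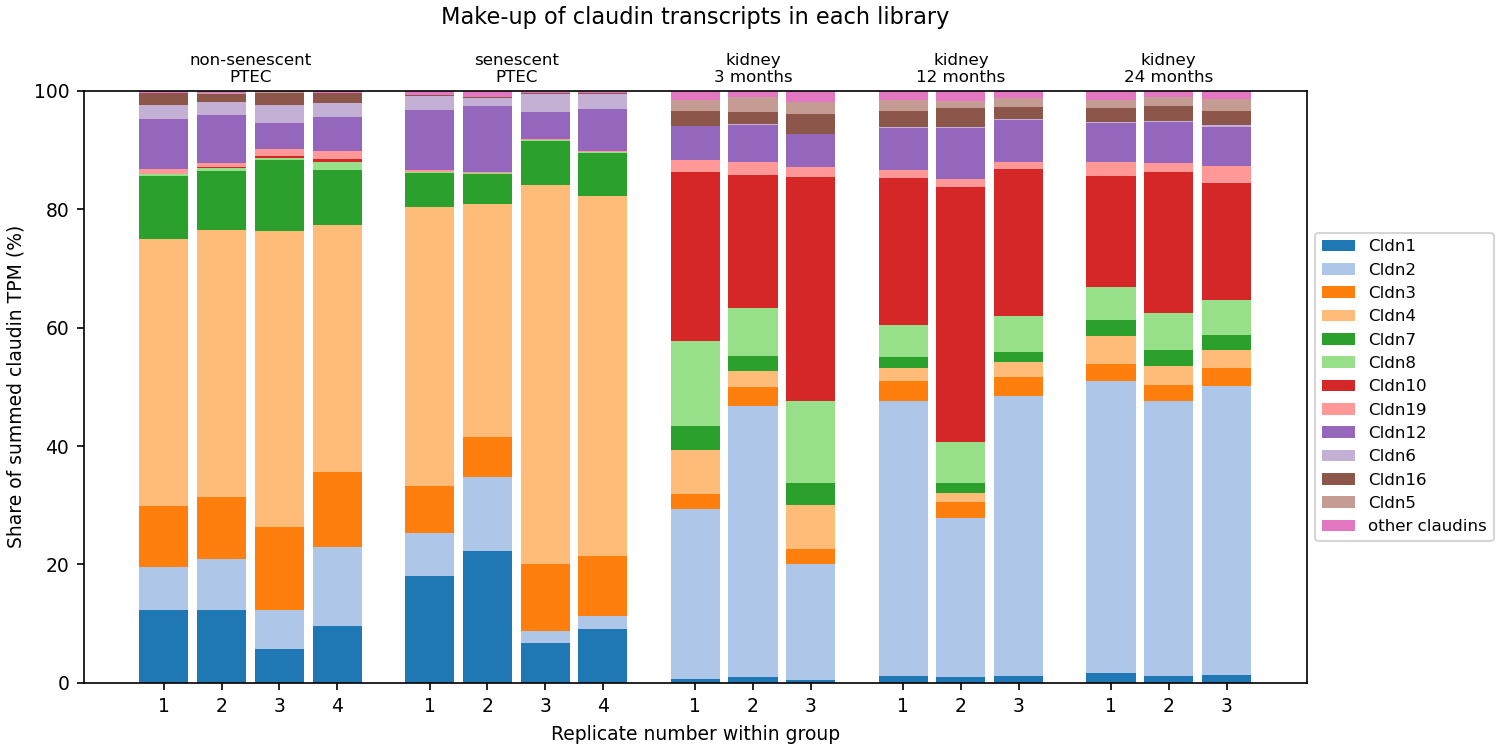
Share of each claudin in the summed claudin TPM (y axis, percent) of every library (x axis, replicate number within the group named above the bars). Cldn4 fills 39.5% to 64.1% of the bars of PTEC, and Cldn2 and Cldn10 fill most of the bars of kidneys, with the share of Cldn2 between 46.4% and 49.4% in all 3 kidneys of 24 months.

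In senescent PTEC 4 of the 10 genes were down-regulated (Cldn2, Cldn8, Cldn10 and Cldn19) and none was up-regulated. Calls required an adjusted p under 0.05 in edgeR's quasi-likelihood test with a log2 fold change beyond 0.5 in either direction, and over all 15434 genes tested 19.7% were called down-regulated and 20.1% up-regulated. At an unadjusted p under 0.05 no member was higher and 5 were lower, beside 25.8% and 25.7% of all genes. DESeq2 called 0 up and 5 down, among 3506 genes up and 3286 down in all. All 10 log2 fold changes were negative, with a median of -0.85 beside -0.00 over all genes. The senescent cultures lay wholly below the non-senescent ones in 4 members, as they did in 19.9% of all genes. In the cultures, as in the kidneys below, fewer cells of a type and less RNA per cell cannot be told apart.

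The pore-forming claudins Cldn2 and Cldn10 both fell. Cldn2 had 153, 171, 197 and 355 CPM in the 4 non-senescent cultures and 90.5, 143, 59.4 and 44.0 CPM in the senescent ones. Every senescent culture lay below every non-senescent one, and the difference was a log2 fold change of -1.38 (SE 0.384, adjusted p = 0.0164), 2.6-fold lower. Per 100 CPM of the pan-epithelial markers Cldn2 overlapped, with 3.92 to 8.83 CPM (mean 5.46) in non-senescent and 1.51 to 7.89 CPM (mean 3.84) in senescent PTEC. On that scale the groups stayed apart for Cldn8, Cldn10 and Cldn19. Cldn10 had 1.91, 2.03, 7.77 and 8.23 CPM in non-senescent and 0.547, 0.234, 0.675 and 0.449 CPM in senescent PTEC. It fell the most of the members, by 3.36 on the log2 scale (SE 0.590, adjusted p = 0.00160), from a level that was already the lowest of the 10, and no senescent culture had more than 25 counts. Beside these falls, 5 of the 8 tested proximal tubule markers were down-regulated and none was up-regulated, and of the 7 thick ascending limb markers 4 were down-regulated. Which isoform of Cldn10 fell cannot be read from counts over the whole gene. Per 100 CPM of the summed thick ascending limb markers Cldn10 amounted to 12.8 to 38.2 CPM in non-senescent and 2.92 to 6.59 CPM in senescent PTEC, without overlap. The part of both marker lists in the result was not tested.

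Cldn19, the thick ascending limb claudin, had 20.0, 19.8, 40.0 and 50.3 CPM in non-senescent PTEC and 3.76, 2.31, 9.35 and 4.91 CPM in senescent PTEC. The groups did not overlap, and Cldn19 fell by 2.67 on the log2 scale (SE 0.464, adjusted p = 0.00150). Its partner Cldn16, not one of the 10, fell by 3.54 (SE 0.510, adjusted p = 0.000538). The summed level of the thick ascending limb markers was 14.9, 14.8, 20.3 and 56.5 CPM in non-senescent PTEC and 8.01 to 10.9 CPM in senescent PTEC. Non-senescent replicate 4, the highest, also had the most Cldn2, Cldn10 and Cldn19. Its proximal tubule markers summed to 1540 CPM, where the other non-senescent cultures had 355 to 462 CPM. Per 100 CPM of the thick ascending limb markers, Cldn19 amounted to 89.1 to 197 CPM in non-senescent and 28.8 to 86.1 CPM in senescent PTEC. This ratio also did not overlap between the groups, though the nearest cultures lay close. The median log2 fold change of the 7 markers was -2.85, a fall as large as that of Cldn19, and in senescent PTEC Kcnj1 had no more than 3 counts. The part of these markers in the result was not tested.

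The claudins of distal tubule and collecting duct did not move alike. Cldn8 had 5.59, 5.81, 7.73 and 27.2 CPM in non-senescent PTEC and 0.869, 0.837, 3.05 and 2.28 CPM in senescent PTEC. Replicate 4 of the non-senescent cultures stood far above the other 3, but the groups also lay apart without it, and the fall was 2.71 on the log2 scale (SE 0.636, adjusted p = 0.00729). Without this culture the log2 fold change was -1.85 (adjusted p = 0.0129). The summed level of the 8 principal cell markers lay between 14.2 and 71.3 CPM in non-senescent PTEC, with its highest value in the same replicate 4, and between 4.76 and 16.2 CPM in senescent PTEC, where Aqp2 and Fxyd4 had no more than 3 counts. Of the 7 of these markers that were tested, 5 were down-regulated, beside 19.7% of all genes, and 1 had a positive log2 fold change. Their median log2 fold change was -3.46, a larger fall than that of Cldn8. Per 100 CPM of the summed markers, Cldn8 amounted to 27.3 to 39.4 CPM in non-senescent and 14.8 to 18.8 CPM in senescent PTEC. The groups lay apart in this ratio too, and the part of the markers in the result was not tested. On the same scale Cldn4 went the other way, from 847 to 3629.7 CPM in non-senescent to 4422 to 6677 CPM in senescent PTEC, and Cldn7 overlapped, with 201 to 909 and 567 to 829.5 CPM. Cldn4 itself was not called. Per 100 CPM of the pan-epithelial markers its groups overlapped, with 13.9 to 16.1 CPM in non-senescent and 13.6 to 27.5 CPM in senescent PTEC.

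Cldn4 had 515, 496, 807 and 603 CPM in non-senescent and 327, 246, 1082 and 680 CPM in senescent PTEC. The senescent cultures spread on both sides of the non-senescent ones, and the log2 fold change of -0.05 (95% confidence interval -0.98 to 0.87, adjusted p = 0.930) changed sign with upper quartile scaling (0.0047) and with library size alone (0.013). Cldn3 had 81.7, 80.8, 157 and 127 CPM against 38.7, 28.9, 132 and 78.0 CPM, a log2 fold change of -0.68 (adjusted p = 0.236). Cldn7, which in many epithelia also sits on the lateral membrane, had 129, 120, 209 and 143 CPM against 42.5, 33.7, 134 and 87.1 CPM, a log2 fold change of -1.01 (adjusted p = 0.0656). In these 3 genes senescent cultures 1 and 2 were low and cultures 3 and 4 were high, and among the non-senescent cultures the highest value was that of culture 3. With the replicate number as a block, Cldn3 (log2 fold change -0.87, adjusted p = 0.00508) and Cldn7 (-1.19, adjusted p = 0.00227) were also called, which made 6 down-regulated members, where that fit called 21.3% of all genes down-regulated and 23.2% up-regulated. Both were also called without senescent culture 3, Cldn3 with a log2 fold change of -1.19 (adjusted p = 0.0294) and Cldn7 with -1.46 (adjusted p = 0.00915).

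Cldn1, a sealing claudin, Ocln and Tjp1 were not called. Cldn1 had 376, 364, 244 and 367 CPM in non-senescent and 335, 369, 307 and 272 CPM in senescent PTEC, a log2 fold change of -0.08 with a 95% confidence interval from -0.46 to 0.31. The interval of Ocln ran from -1.01 to 0.52 and that of Tjp1 from -0.87 to 0.42. Ocln had 20.0 and 15.3 CPM in senescent cultures 1 and 2 and 47.4 and 40.5 CPM in cultures 3 and 4, while the non-senescent cultures had 35.3, 35.6, 27.2 and 48.0 CPM. Tjp1 had 288, 329, 110 and 289 CPM in non-senescent and 228, 221, 180 and 238 CPM in senescent PTEC, with culture 3 the lowest of its group in both. Without non-senescent culture 3 the log2 fold change of Tjp1 was -0.47 (adjusted p = 0.0150), short of the threshold of 0.5 on the fold change.

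**Figure D2:**
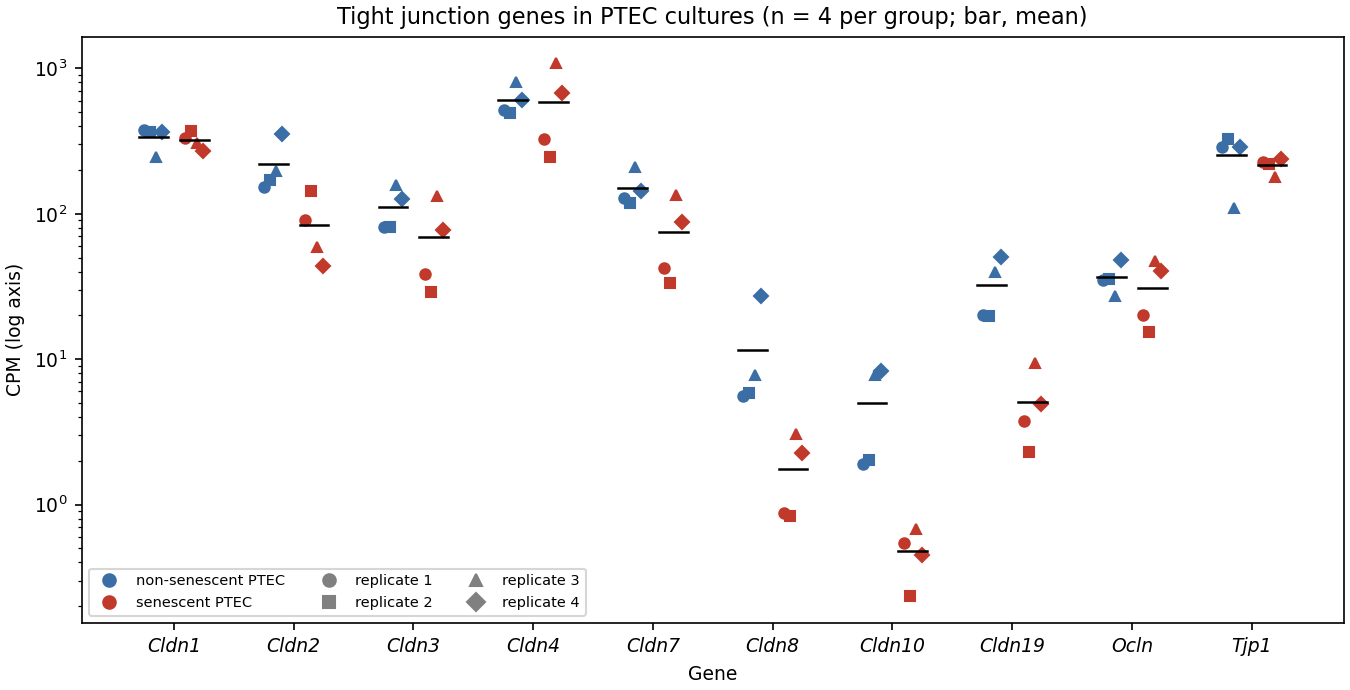
CPM on a log axis of the 10 genes (x axis) in each PTEC culture; marker shapes give the replicate, colours the group and bars the mean of 4 cultures. The groups lie apart for Cldn2, Cldn8, Cldn10 and Cldn19 and overlap for the other 6 genes, and senescent replicate 3 has 1082 CPM of Cldn4, above every non-senescent culture.

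Of 61 further genes of the junction and its regulation, 53 were tested in PTEC, and 9 were up-regulated and 11 down-regulated, beside 20.1% and 19.7% of all genes tested. Their median log2 fold change was -0.11. Among the junction's membrane proteins 3 of 12 rose and 1 fell, among scaffold proteins 2 of 22 rose and 5 fell, and among regulators 3 of 12 rose and 4 fell. Among called genes that averaged 1 CPM or more over the cultures, the largest falls after Cldn16 were those of Ovol1 (-2.44), a transcription factor of epithelial cells, the scaffold genes Tjp3 (-1.56), a relative of Tjp1, and Cgn (-1.34), which encodes cingulin, and Ybx3 (-1.22), which encodes a nucleic acid binding protein that associates with zonula occludens 1. Under the same limit the largest rises were those of Snai2 (2.13) and Zeb1 (1.25), transcription factors that repress epithelial junction genes, the junctional adhesion molecule gene Jam3 (1.74), and the scaffold genes Magi2 (1.49) and Amotl2 (1.07). Bves (2.33) and Twist1 (2.14), also up-regulated, averaged less than 1 CPM. With the replicate block 14 of the further genes were up-regulated and 15 down-regulated, where the shares over all genes were 23.2% and 21.3%.

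In kidneys, between 24 and 3 months, 1 of the 10, Cldn8, was down-regulated and none was up-regulated, where 0.451% of the 17067 genes tested were called down-regulated and 1.89% up-regulated (2.34% either way). At an unadjusted p under 0.05, 1 member was higher (Cldn1) and 4 were lower, beside 9.97% and 8.23% of all genes. DESeq2 called 1 up and 2 down, and over all genes 727 up and 308 down against 322 and 77 in edgeR. The median log2 fold change was -0.20 beside 0.00 over all genes. The 24-month-old kidneys lay wholly below the 3-month-old ones in 4 members (10.1% of all genes) and wholly above them in 1 (11.9%). The comparisons of 24 and of 12 months with 3 months share the 3-month-old kidneys, and that of 24 with 12 months shares kidneys with both.

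Cldn8 had 144, 75.5 and 147 CPM at 3 months, 41.5, 56.4 and 51.0 CPM at 12 months and 42.3, 53.6 and 46.4 CPM at 24 months. All kidneys of both older groups lay below all 3-month-old kidneys, of which replicate 2 was nearest to them. Cldn8 fell by 1.37 on the log2 scale at 24 months (SE 0.258, adjusted p = 0.0301) and by 1.30 at 12 months (SE 0.257, adjusted p = 0.0389). The call at 24 months was lost with the replicate block (adjusted p = 0.114), with the compared ages alone (0.0640), with both (0.268) and without any of replicate 1 or 3 of the 3-month-old kidneys (0.145 and 0.0915), replicate 3 of 12 months (0.0559) or replicates 1, 2 and 3 of 24 months (0.130, 0.0750 and 0.104), with log2 fold changes from -1.46 to -1.21.

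Between 12 and 3 months 3 members were down-regulated, Cldn7, Cldn8 and Cldn19, and none was up-regulated, where 1.36% of genes were called down-regulated and 1.22% up-regulated (2.58% either way). In 4 members all 12-month-old kidneys lay below all 3-month-old ones, as in 9.4% of all genes. At an unadjusted p under 0.05, 1 member was higher (Cldn1) and 4 were lower, beside 8.95% and 7.58% of all genes. DESeq2 called 0 up and 4 down, and over all genes 531 up and 576 down against 209 and 232 in edgeR. Cldn7 had 32.5, 20.1 and 32.1 CPM at 3 months, 11.7, 11.9 and 12.6 CPM at 12 months and 17, 19.3 and 16.6 CPM at 24 months. The 3 ages did not overlap, with the 12-month-old kidneys lowest, and the log2 fold change was -1.23 at 12 months (SE 0.191, adjusted p = 0.0208) and -0.68 at 24 months (adjusted p = 0.112). Cldn19 had 35.9, 38.7 and 34.2 CPM at 3 months, 20.1, 21 and 18.7 CPM at 12 months and 32.5, 24.9 and 40.9 CPM at 24 months. It was lower in every 12-month-old kidney than in any other, by 0.86 on the log2 scale against 3 months (SE 0.181, adjusted p = 0.0453), and its values at 24 and 3 months overlapped. The means of Cldn4 had the same order of ages as those of Cldn7, with 58.5, 19.2 and 60.3 CPM at 3 months, 12.9, 9.16 and 16.5 CPM at 12 months and 28.1, 21.1 and 18.2 CPM at 24 months, but its log2 fold change of -1.84 at 12 months had an adjusted p of 0.0554. Cldn4 was called at 12 months with DESeq2 (-1.84, adjusted p = 0.000609) and without the filter on low counts (-1.79, adjusted p = 0.0458).

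These calls rested on few kidneys. All 3 calls at 12 months were lost without replicate 1 or 3 of the 3-month-old kidneys or any one of the 12-month-old kidneys, and with the compared ages alone, when adjusted p-values rose to between 0.0546 and 0.167. They were also lost with the replicate block, with 0.0701 for Cldn7, 0.124 for Cldn8 and 0.138 for Cldn19, and with the ages alone and the block (0.482 to 0.615). Upper quartile scaling lost Cldn8 (0.0590) and Cldn19 (0.0515), and Cldn19 was lost without the filter on low counts (0.0604) and at a log2 fold change threshold of 1. Cldn8 alone lost its call without replicate 2 or 3 of the 24-month-old kidneys (adjusted p = 0.0580 and 0.0719), and both Cldn8 and Cldn19 lost it without replicate 1 of that age (0.0608 and 0.0764). Without replicate 2 of the 3-month-old group, the kidney that stood apart, Cldn19 lost its call (adjusted p = 0.0640), while Cldn4 (log2 fold change -2.20, adjusted p = 0.00410) and Cldn1 (0.78, adjusted p = 0.0329) were called at 12 months, and Cldn1 (1.11, adjusted p = 0.0134), Cldn4 (-1.39, adjusted p = 0.0296) and Cldn7 (-0.87, adjusted p = 0.0156) at 24 months. Calls over all genes also rose without that kidney, at 12 months from 232 to 467 down-regulated and from 209 to 249 up-regulated, and at 24 months from 77 to 334 and from 322 to 460. Without any other single kidney, calls over all genes at 12 months fell, to between 21 and 132 down-regulated and between 31 and 112 up-regulated.

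Cldn4, Cldn7 and Cldn8 are claudins of the collecting duct, and the level of its principal cells was read from 8 markers. Their summed level was 1220, 766 and 1051 CPM in the 3-month-old kidneys, 443, 347 and 533 CPM at 12 months and 611, 421 and 635 CPM at 24 months, and among the 3-month-old kidneys replicate 2 was again the lowest. Of the 8 markers 2 were down-regulated at 12 months, Aqp2 and Avpr2, and 1 at 24 months, Avpr2. Per 100 CPM of these markers Cldn7 amounted to 2.78 ± 0.239 CPM at 3 months, 2.82 ± 0.565 at 12 months and 3.33 ± 1.09 at 24 months (SD, n = 3), and Cldn8 to 11.9 ± 2.06, 11.7 ± 3.93 and 8.98 ± 3.24. Cldn4 amounted to 4.34 ± 1.67, 2.88 ± 0.227 and 4.16 ± 1.13. These ratios overlapped between the ages, and the part of the markers in the result was not tested. For Cldn19 the 7 thick ascending limb markers were read, whose summed level was 4108, 6615 and 4141 CPM at 3 months, 4318, 3358 and 4382 CPM at 12 months and 6201, 4760 and 5524 CPM at 24 months. Their log2 fold changes were all negative at 12 against 3 months, with a median of -0.31 and 1 gene called, Sostdc1 (-1.07, adjusted p = 0.0208). At 24 against 12 months all 7 were positive, with a median of 0.42 and none called. Per 100 CPM of these markers Cldn19 amounted to 0.762 ± 0.155, 0.506 ± 0.105 and 0.596 ± 0.125 CPM at the 3 ages, with ranges that overlapped, and the part of the markers in the result was not tested. Other marker lists also moved with age. All 9 leukocyte markers had positive log2 fold changes against 3 months, with a median of 0.83 and 1 called (Cd79a) at 12 months and a median of 0.95 and 3 called (Rac2, Cd3e and Cd79a) at 24 months. Their summed level was 74.0 to 118 CPM at 3 months, 115 to 148 CPM at 12 months and 124 to 174 CPM at 24 months, and at 12 months it overlapped with 3 months. The 8 endothelium markers were all positive at 12 against 3 months, with a median of 0.45, and all negative at 24 against 12 months, with a median of -0.31, and none was called in either. Their summed level was 256 to 335 CPM at 3 months, 383 to 429 CPM at 12 months and 227 to 409 CPM at 24 months. All 7 intercalated cell markers were negative at both older ages against 3 months, with medians of -0.40 and none called. Of the 9 pan-epithelial markers 2 were down-regulated at 12 months, Epcam (-1.10, adjusted p = 0.0148) and Krt18 (-2.21, adjusted p = 0.0396). All 10 fibroblast and pericyte markers were positive at 24 against 3 months, with a median of 0.41 and none called. Their summed level was 190 to 229 CPM at 3 months and 243 to 312 CPM at 24 months. Of the 14 proximal tubule markers 13 were positive at 12 against 3 months, with none called. At 24 against 3 months 11 were positive, with a median of 0.44, and 3 were up-regulated and 0 down-regulated. Their sums were 51939 to 52652 CPM at 3, 54494 to 58074 CPM at 12 and 45185 to 50220 CPM at 24 months, without overlap. The lower sum at 24 months went against the direction of most of these markers and does not describe the list as a whole. The part of these lists in the results of the members was not tested.

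**Figure D3:**
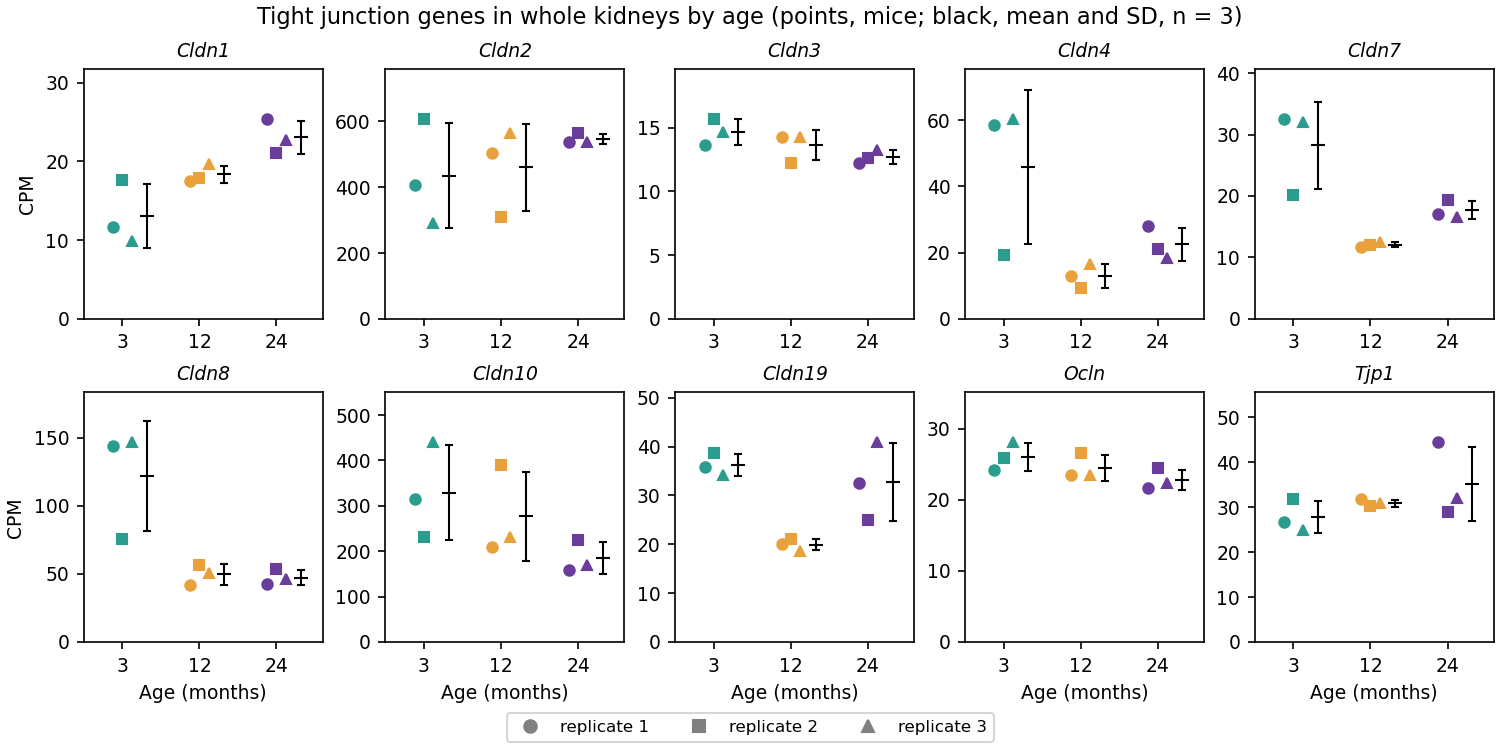
CPM of the 10 genes (y axes from 0, one panel a gene) in kidneys of 3, 12 and 24 months (x axis); points are mice with the replicate as marker shape, and black bars give the mean and SD of 3 mice. Cldn8 is lower in all older kidneys than at 3 months, Cldn7 and Cldn19 are lowest at 12 months, and Ocln and Cldn3 stay within 21.7 to 28.1 and 12.2 to 15.7 CPM.

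The other members showed no called difference in kidneys. Cldn1 had 11.6, 17.7 and 9.83 CPM at 3 months, 17.5, 17.9 and 19.6 CPM at 12 months and 25.4, 21.1 and 22.7 CPM at 24 months. Every 24-month-old kidney had more Cldn1 than any younger one, with a log2 fold change of 0.82 against 3 months (95% confidence interval 0.34 to 1.30, adjusted p = 0.0890), and DESeq2 gave an adjusted p of 0.0266. Cldn2 had 407, 607 and 293 CPM at 3 months, 505, 311 and 565 CPM at 12 months and 537, 564 and 539 CPM at 24 months, so that the 24-month-old kidneys lay within the range of the youngest. Cldn10 had 316, 232 and 440 CPM, 210, 390 and 231 CPM, and 159, 225 and 170 CPM at these ages. All 24-month-old kidneys lay below all 3-month-old ones for Cldn10, with a log2 fold change of -0.83 (adjusted p = 0.201). The 95% confidence intervals at 24 against 3 months were -0.50 to 0.08 for Cldn3, -0.48 to 0.09 for Ocln and -0.08 to 0.74 for Tjp1.

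Between 24 and 12 months no member was called, where 0.896% of genes were called up-regulated and 0.434% down-regulated (1.33% either way). In 4 members all 24-month-old kidneys lay above all 12-month-old ones, as in 13.5% of all genes. At an unadjusted p under 0.05 2 members were higher (Cldn7 and Cldn19) and none was lower, beside 8.06% and 7.19% of all genes. DESeq2, which called 493 genes up and 286 down in all, called 1 member up, Cldn19, with a log2 fold change of 0.72 (adjusted p = 0.0187), and 0 down. In edgeR the log2 fold change of Cldn19 was 0.72 (SE 0.181, adjusted p = 0.102) and that of Cldn7 0.55 (SE 0.189, adjusted p = 0.214). Deviations of same-numbered kidneys of 12 and 24 months were positively correlated, but these were different mice and the labels do not pair them. With these ages alone and the replicate number as a block, which was added after seeing the data, Cldn4 (0.82, adjusted p = 0.0356), Cldn7 (0.54, adjusted p = 0.0149) and Cldn19 (0.69, adjusted p = 0.0197) were up-regulated at 24 months. Cldn10 (-0.54, adjusted p = 0.0165) was down-regulated. In that fit 7.77% of 16686 genes were called up-regulated and 5.41% down-regulated, several times the shares without the block, whereas the block in the fit of all 3 ages called 0 genes in either direction.

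**Figure D4:**
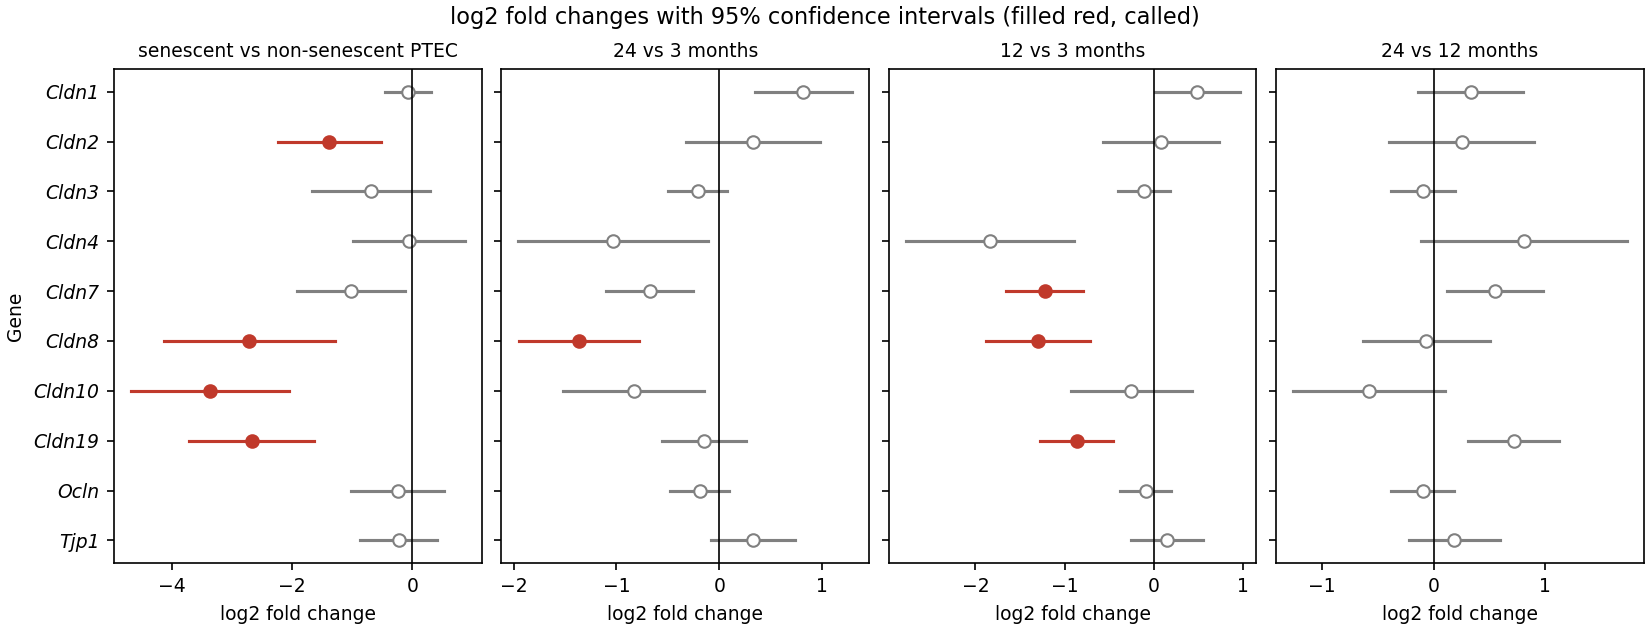
log2 fold changes (x axes, a range of its own in each panel) of the 10 genes (y axis) with 95% confidence intervals in the 4 comparisons; filled red points are called genes. All 10 points lie below 0 in PTEC, from -3.36 for Cldn10 to -0.05 for Cldn4, and Cldn8 is called at both older ages against 3 months.

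Of the 54 further junction genes tested in kidneys, 4 were down-regulated at 12 against 3 months, beside 1.36% of all genes: Grhl1 (-2.95, adjusted p = 0.0267) and Grhl2 (-1.20, adjusted p = 0.0261), which encode Grainyhead-like transcription factors of epithelial cells, Ildr1 (-0.81, adjusted p = 0.0294), which encodes a protein of tricellular junctions, and Cldn23, which lay under 1 CPM on average. None was up-regulated (1.22% of all genes). DESeq2 called 0 up and 6 down, beside 0.988% and 1.07% of the 53772 genes in its fit. At an unadjusted p under 0.05, 2 were higher and 10 lower, beside 8.95% and 7.58% of all genes. The 4 edgeR calls also rested on few kidneys: none was left without replicate 1 of 3 months, any one 12-month-old kidney or replicate 3 of 24 months. Without replicate 3 of 3 months 1 was left, and 2 without replicate 1 or 2 of 24 months. Between 24 and 3 months, where 1.89% of all genes were called up- and 0.451% down-regulated, edgeR called 0. DESeq2 called 1 up and 2 down, beside 1.35% and 0.573% of the genes in its fit. At an unadjusted p under 0.05, 3 were higher and 8 lower, beside 9.97% and 8.23% of all genes. Between 24 and 12 months (0.896% and 0.434% of all genes) edgeR also called 0, and DESeq2 1 up and 0 down, beside 0.917% and 0.532% of the genes in its fit. At an unadjusted p under 0.05, 5 were higher and 1 lower, beside 8.06% and 7.19% of all genes.

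Pairs of the 10 genes were also compared across the 9 kidneys, on log2 CPM with exact two-sided permutation tests, which gave 45 pairs, 5 of them with an adjusted p under 0.05 by Pearson's r. By Spearman's rho only Cldn4 with Cldn7, Cldn10 with Ocln and Cldn8 with Cldn10 were under 0.05, each with an adjusted p of 0.0461. Cldn8 and Cldn10 had rho = 0.88 and r = 0.74 (adjusted p of r = 0.102). These tests treat the 9 kidneys as exchangeable although the ages differ. Over deviations from the mean of each age, permuted within ages only (216 permutations, a test added after seeing the data), none of the 45 pairs had an adjusted p under 0.05, and the smallest was 0.208. Cldn4 and Cldn7 varied together, with Pearson's r = 0.94 (exact p = 0.000628, adjusted p = 0.0283) and Spearman's rho = 0.90 (exact p = 0.00203). Without the 2 kidneys farthest from the median of Cldn4 r was 0.75, and over deviations from the age means it was 0.86 (exact p = 0.120). Cldn2 and Cldn10 went in opposite directions, with r = -0.87 (exact p = 0.00345, adjusted p = 0.0388) but rho = -0.47 (exact p = 0.213). Without the 2 kidneys farthest from the median of Cldn2 r was -0.52, so that this relation rested on those kidneys, and over deviations from the age means it was -0.88 (exact p = 0.0556). Cldn10 and Ocln varied together, with r = 0.89 (exact p = 0.00132, adjusted p = 0.0298), rho = 0.88 (exact p = 0.00308), r = 0.71 without the 2 farthest kidneys and 0.81 over deviations (exact p = 0.0278). The remaining pairs with an adjusted p under 0.05 by Pearson's r rested on the 2 kidneys farthest from the median. Cldn1 and Cldn8 had r = -0.92 (exact p = 0.00301, adjusted p = 0.0388), rho = -0.63 (exact p = 0.0760), r = -0.49 without those kidneys and -0.86 over deviations (exact p = 0.0694). Cldn7 and Cldn8 had r = 0.88 (exact p = 0.00492, adjusted p = 0.0442), rho = 0.75 (exact p = 0.0255), r = 0.42 without those kidneys and 0.93 over deviations (exact p = 0.0556). The ratio of Cldn2 to Cldn10 CPM was 1.29, 2.62 and 0.665 in the 3-month-old kidneys, 2.41, 0.797 and 2.45 at 12 months and 3.37, 2.51 and 3.17 at 24 months. In PTEC, which form 2 separate groups, no correlation was computed.

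**Figure D5:**
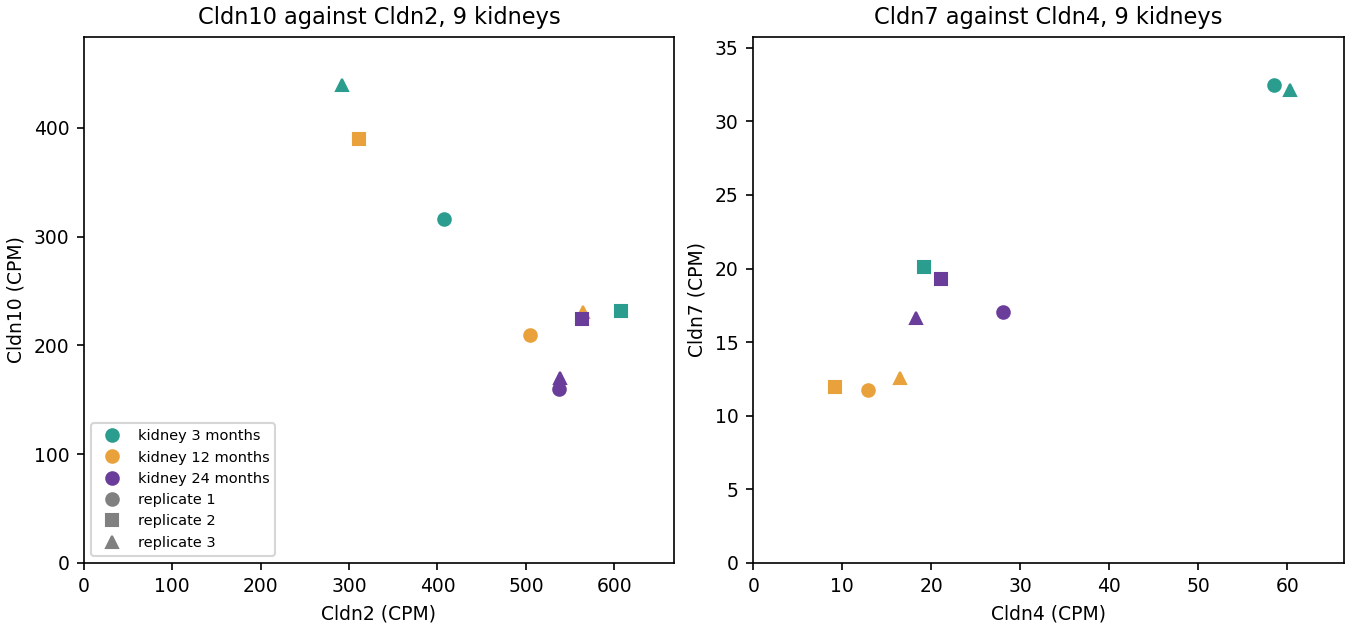
Cldn10 against Cldn2 and Cldn7 against Cldn4, in CPM, in the 9 kidneys; colours give the age and marker shapes the replicate. The 2 kidneys with about 60 CPM of Cldn4 (58.5 and 60.3) also have the most Cldn7, and the 3 kidneys with the least Cldn2 have the most Cldn10.

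The genes whose profiles were most like those of the most variable members were found by the root mean square difference of log2 CPM after centring, over genes that averaged 5 CPM or more. Over the 8 cultures Cldn19 was nearest to Plet1 (0.171), Tmprss2 (0.207) and Hgfac (0.219). Cldn8 was nearest to Vil1 (0.376), Tmprss2 (0.379) and Plet1 (0.386), and Cldn10 to Bco1 (0.327), Calml4 (0.336) and Mlxipl (0.375). Over the 9 kidneys Cldn7 was nearest to Epcam (0.109), Alcam (0.136) and Asns (0.146), Cldn8 to Myl12a (0.184), Avpr2 (0.202) and Fxyd4 (0.204), and Cldn4 to Rab15 (0.181), Fam174b (0.261) and Acer2 (0.267). Avpr2, the vasopressin receptor of the collecting duct, and Fxyd4, a regulator of the sodium pump, are among the principal cell markers used above.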

How the data were processed

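RNA from 8 PTEC cultures and 9 kidneys was sequenced by the authors from stranded poly(A) libraries in paired-end reads and processed with nf-core/rnaseq on GRCm38. The authors deposited raw counts per gene, which were used as deposited. The aligner, counting tool and strand setting are not given in the sources used here. Symbols, positions and exon lengths were taken from GENCODE M21, and identifiers were matched without their version. The gene sets of the counts differed, with 53715 identifiers for PTEC, 54146 for kidneys of 3 months and 55401 for kidneys of 12 and 24 months.

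PTEC and kidneys were fitted apart, the 3 ages in 1 fit, in R 4.3.3 with edgeR 4.0.16 (TMM scaling, filterByExpr, robust quasi-likelihood test, Benjamini-Hochberg adjustment over all genes) and limma 3.58.1. Calls needed an adjusted p under 0.05 with a log2 fold change beyond 0.5 in either direction. Where no tool is named, an adjusted p is that of edgeR; DESeq2 1.42.0 was run with the study's settings. log2 CPM used a prior count of 2. TPM, tables and permutation tests were made in Python 3.11.15 with pandas 2.3.3 and numpy 2.4.6, and figures with matplotlib 3.10.9. Members, lists and tests were chosen with earlier results of these data known. Named are all 10 members, up to 5 called further junction genes in each direction and comparison with a mean of at least 1 CPM, other claudins with at least 1 TPM in a group, and the genes most like the 3 most variable members of each experiment. Of 62 further junction genes listed, 61 were matched. Deviations from the mean of the group had correlations of 0.186 to 0.614 in pairs of cultures with one number. Between same-numbered kidneys of 12 and 24 months, which were different mice, r was from 0.172 to 0.557. The labels do not state that the numbers pair samples, and differently numbered samples were not compared, so whether they do is not known. The reported calls come from fits without a block, and the block was an alternative. With the 3-month-old kidneys r was from -0.701 to -0.034. On simulated counts with 200 genes changed 2-fold, edgeR recovered 111 with 6 false calls for the PTEC comparison and 42 with 4 false calls for 24 against 3 months. Alternatives were other scalings, filters and thresholds, DESeq2, a replicate block, each library left out and the compared ages alone.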

Additional observations from a re-analysis of the deposited data

Results flagged for a closer look

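The spread within groups of 4 cultures was checked for the 10 genes in both PTEC groups, 20 checks in all, of which chance alone would flag about 1 in 20. In 2 of them a culture lay far from the other 3. Cldn1 had 244 CPM in non-senescent PTEC replicate 3, where the other 3 cultures had 364 to 376 CPM. Cldn8 had 27.2 CPM in non-senescent PTEC replicate 4, where the other 3 had 5.59 to 7.73 CPM.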

How the results depend on the processing

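The calls of Cldn2, Cldn8, Cldn10 and Cldn19 in PTEC held under every scaling, filter, threshold, tool and left-out culture tried. Of the further junction genes in PTEC, 6 were down-regulated at a log2 fold change threshold of 1, where 10.9% of all genes were. With the replicate block 14 were up- and 15 down-regulated, beside 23.2% and 21.3% of all genes. With a culture left out 8 to 13 were up- and 7 to 14 down-regulated, beside 16.8% to 21.4% and 15.1% to 20.4% of all genes. The log2 fold change of Cldn4 turned positive with upper quartile scaling (0.0047), library size alone (0.013) and ranged from -0.53 to 0.21 with a culture left out.

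The kidney calls were less stable, and the cause was not tested. At 24 against 3 months DESeq2 called 1 member up and 2 down, and 1 further junction gene up and 2 down, beside 1.35% and 0.573% of the genes in its fit. No member was down-regulated with the replicate block (0.141% of all genes), the compared ages alone (0.344%) or both (0.0665%). Leaving a kidney out gave 0 to 1 members up- and 0 to 3 down-regulated, and 0 to 3 further genes down-regulated. The shares over all genes were then 0.298% to 2.62% up- and 0.126% to 1.9% down-regulated. At 12 against 3 months 1 member was down-regulated with upper quartile scaling (1.19% of all genes). The number was 0 with the replicate block (0.387%), the compared ages alone (0.16%) or both (0 genes in all). The further genes down-regulated were 1 with the block and 0 with the compared ages alone, with or without the block. With a kidney left out 0 to 1 members were up- and 0 to 3 down-regulated, and 0 to 5 further genes down-regulated. The shares over all genes were then 0.177% to 1.42% up- and 0.12% to 2.66% down-regulated. At 24 against 12 months DESeq2 called 1 member and 1 further gene up, beside 0.917% of the genes in its fit. With the compared ages alone and the replicate block, 3 members were up- and 1 down-regulated, as were 10 and 1 further genes, in a fit that called 1297 genes up- and 903 down-regulated in all (153 and 74 without the block, all ages), while the block in the fit of all ages called 0. The replicate block in the fit of all ages cut the genes called between 24 and 3 months from 322 to 102 up-regulated and from 77 to 24 down-regulated.

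Directions turned in small differences only, with a kidney left out. At 12 against 3 months the log2 fold change of Cldn2 then ranged from -0.14 to 0.40 and that of Cldn10 from -0.58 to 0.011. At 24 against 12 months Cldn8 ranged from -0.18 to 0.033 and Tjp1 from -0.021 to 0.31, and at 24 against 3 months Cldn19 from -0.34 to 0.021.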

Other observations

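Claudins other than the 8 described made up part of the total. Cldn6, a claudin known from embryonic epithelia, had 62.9 ± 14.1 TPM in non-senescent and 53.9 ± 34.5 TPM in senescent PTEC (SD, n = 4), and 1.03 ± 0.712, 1.31 ± 0.479 and 2.05 ± 0.416 TPM in kidneys of 3, 12 and 24 months (SD, n = 3). Cldn12 had 165 ± 32.7 and 157 ± 5.99 TPM in these cultures and from 57.6 to 61.6 TPM on average in kidneys. Cldn5, the claudin of endothelium, had 1.36 ± 0.967 and 1.01 ± 0.603 TPM in the cultures and 20.8 ± 2.90, 12.5 ± 2.01 and 13.6 ± 2.40 TPM in kidneys. Cldn16 had 44.0 ± 9.40 TPM in non-senescent PTEC, 4.15 ± 3.17 TPM in senescent PTEC and 25.8 ± 5.71 TPM in 3-month-old kidneys. Cldn15 had 1.83 ± 0.53 and 4.28 ± 1.84 TPM in the cultures, where it was up-regulated (log2 fold change 1.05, adjusted p = 0.0343) with overlapping groups, and 10.1 ± 1.76 TPM in 3-month-old kidneys. Cldn11 and Cldn23 stayed under 4 TPM on average in every group.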
